A study of Mus musculus with 2 samples.

Results

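Fabp4, Cd36, Fabp5, Lpl and Gpihbp1, which together cover the uptake of fatty acids from blood, were followed through single αSMA-labeled periosteal cells of the mouse. These 5 genes were picked from the 17938 listed over the 2 plates because Fabp4 had already stood out in the same cells. Their levels are therefore given as a description with no test. Each cell was sorted into its own well, and transcripts were counted by unique molecular identifiers (UMIs), which mark single cDNA molecules. Wells with at least 200 genes were kept, leaving 503 wells of 600 sorted.

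All cells were sorted as Tomato+ from tibia and femur periosteum of female mice given 2 tamoxifen injections of 75 mg/kg. In these mice a tamoxifen-inducible Cre under the αSMA promoter switches on the Ai9 Tomato reporter for good, so cells that expressed αSMA at injection stay labeled together with their progeny. The 2-day cells came from aSMACreER/Ai9/Col2.3GFP mice at 10.3 weeks of age, and the 6-week cells from the same strain after 43 days of chase at 14.4 weeks. The 13-week cells came from aSMACreER/Ai9/R26-M2rtTA/TetOP-H2B-GFPH2B mice after 96 days of chase at 20.1 weeks, and these mice had also been given and then withdrawn from doxycycline. The 2-day and 13-week cells shared 1 plate, and the 6-week cells were on the other. Each time point was 1 pool of mice, so chase cannot be told apart from age, strain, doxycycline or, for 6 weeks, plate. The intervals below are 95% limits of counting error only and do not cover differences between cells or mice.

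The pools of 2 days, 6 weeks and 13 weeks gave 181, 189 and 133 kept wells, with a median of 795, 672 and 726 UMIs. Of all detections of a gene in a well, 81.3% rested on exactly 1 UMI. The barcodes of 216 used wells occurred on both plates, and no doublet caller was run.

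Fatty acids reach tissues through the capillary wall. Lipoprotein lipase, made by Lpl, frees them from circulating lipoproteins, and Gpihbp1 is the endothelial protein that holds the lipase at the capillary surface. Cd36 is a membrane receptor that takes fatty acids into cells, and Fabp4 and Fabp5 are small chaperones that bind them in the cytoplasm. Fabp4 is best known from adipocytes, but capillary endothelium and some macrophages express it too.

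Fabp4 and Fabp5 lie on chromosome 3 with 187480 bases between them, and the other 3 lie on other chromosomes. On GRCm38, Fabp4 is at chr3:10204088-10208576 on the minus strand and Fabp5 at chr3:10012548-10016607 on the plus strand. Cd36 is at chr5:17781690-17888801 (minus), Lpl at chr8:68880491-68907448 (plus) and Gpihbp1 at chr15:75596628-75599481 (plus). None of the 5 overlaps another gene in GENCODE M21. Fabp4 and Fabp5 are related, so their coding sequences were compared to see how far reads could be mistaken. In the GENCODE M21 transcripts their longest identical run is 12 bases, shown in capitals with 20 bases on either side:
Fabp4, coding bases 85 to 136: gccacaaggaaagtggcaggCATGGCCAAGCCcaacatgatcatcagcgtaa
Fabp5, coding bases 91 to 142: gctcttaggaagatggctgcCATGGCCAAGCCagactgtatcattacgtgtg
No longer run was shared between the full transcripts, and with Fabp3 the longest was 14 bases.

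Wells were grouped by Rgs5, a pericyte gene, and by any UMI of 4 endothelial genes: Pecam1, Cdh5, Kdr and Egfl7. Rgs5 wells (1 UMI or more) numbered 118, and 45 of these, or 38.1% (29.4 to 47.5), also held an endothelial UMI. Another 18 wells held an endothelial UMI without Rgs5, and 367 held neither. The pericyte label of the Rgs5 wells was checked against other markers. Kcnj8 was 24.4-fold (10.9 to 64.2), Abcc9 40.6-fold (12.7 to 207) and Notch3 5.86-fold (3.41 to 10.2) higher there than in the other wells, whereas Tnmd, a tendon gene, was at 0.16 of their level. In the 45 wells with an endothelial UMI, Kcnj8 was at 0.357 (0.168 to 0.709) and Notch3 at 0.271 (0.107 to 0.607) of the level in the other Rgs5 wells. Abcc9 was at 0.672 (0.305 to 1.43), with an interval that includes 1. In the 45 wells the 14 endothelial genes outside the rule summed to 61.9 UMIs per 10000 and the pericyte genes other than Rgs5 to 21.3. Whether an Rgs5 well with endothelial transcripts held 1 cell or more was not tested.

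Fabp4 was the most frequent of the members, with 979 UMIs in 92 of 503 wells. Its UMIs were concentrated in wells that held both Rgs5 and an endothelial transcript. These 45 wells carried 72.8% of all Fabp4 UMIs, and 42 of them (93.3%, 81.7 to 98.6) had at least 1. Among the 73 Rgs5 wells without an endothelial UMI, 26 (35.6%, 24.7 to 47.7) had Fabp4, as did 5 of the 18 wells with an endothelial UMI alone.

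Fabp4 in single wells was abundant where it was found. In Rgs5 wells with an endothelial UMI, the lowest, median and highest counts per well were 0, 13.5 and 24 UMIs at 2 days. The 6-week wells had 0, 14 and 63, and the 13-week wells 0, 13 and 77. The medians at the 3 times were nearly the same, and 1 well in each pool held no Fabp4. In Rgs5 wells without an endothelial UMI the median was 0 at every time point, and the highest counts were 10, 10 and 25 UMIs. The higher counts of this class thus lay within the range of the class with endothelial UMIs.

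**Figure D1:**
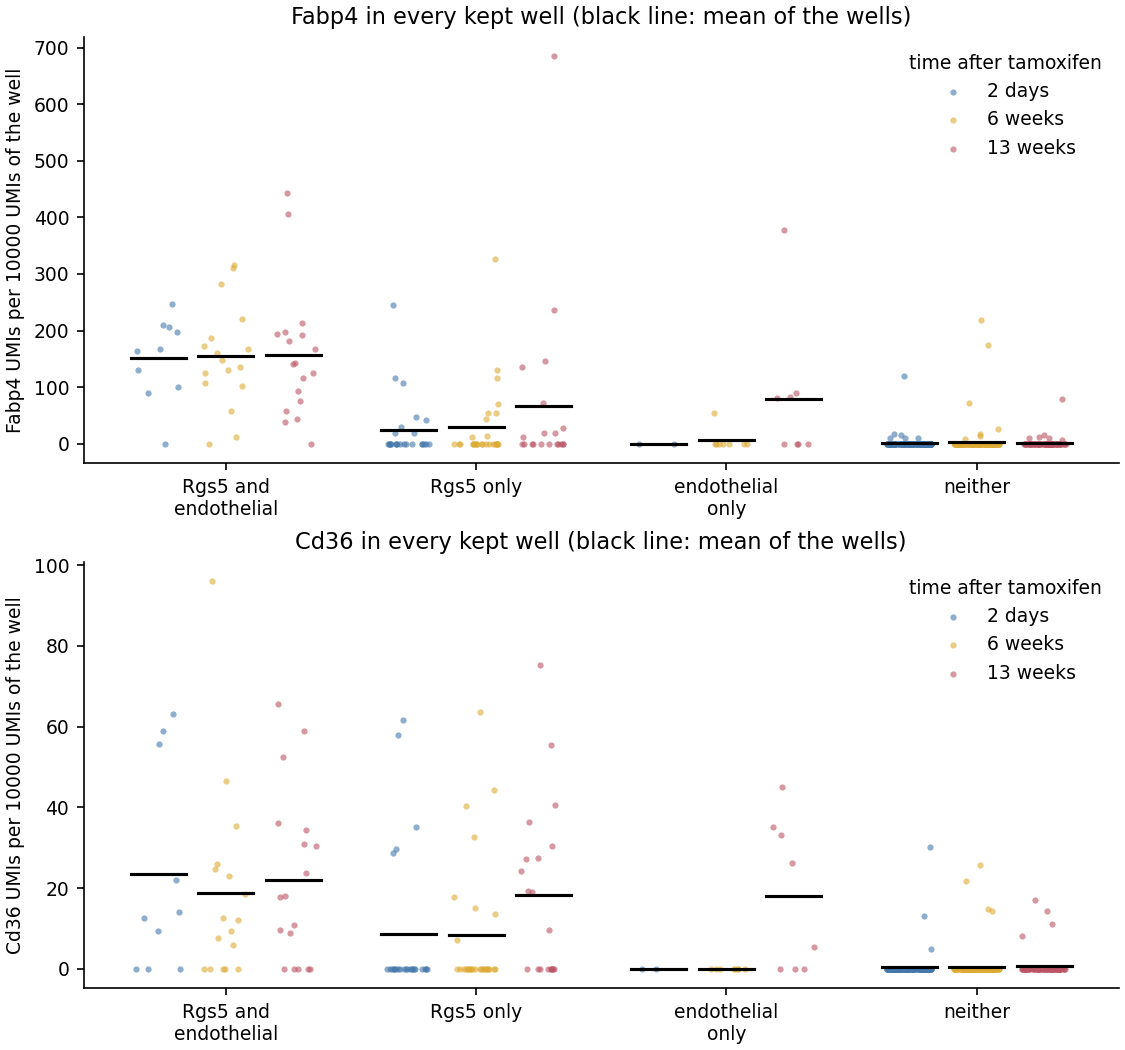
Fabp4 (top) and Cd36 (bottom) in every kept well, in UMIs per 10000 UMIs of that well (vertical axis), by class of well (horizontal axis) and time after tamoxifen (color). Each point is 1 well and the black line is the mean of the wells; the mean Fabp4 level of Rgs5 wells with an endothelial UMI was 151, 155 and 157 at the 3 times, and 1 Rgs5 well without one reached 685 at 13 weeks.

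Pooled over the 3 times, Fabp4 stood at 152 UMIs per 10000 (141 to 164) in Rgs5 wells with an endothelial UMI and 29.4 (24.6 to 34.7) in those without. The ratio was 5.18 (4.31 to 6.28), and in the pools of 2 days, 6 weeks and 13 weeks it was 6.84, 6.23 and 3.42. With every well thinned to 300 UMIs before classing, the pooled ratio was 2.86. With Rgs5 wells replaced by wells that held 2 or more pericyte genes, it was 9.97. Wells with an endothelial UMI were deeper, with a median of 801 UMIs against 497, and a deeper well has more chance to show any gene. Within wells under 500 UMIs, Fabp4 was found in 9 of 9 with an endothelial UMI and in 12 of 37 without, and within wells of 1000 or more in 17 of 17 and 3 of 8.

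The wells with neither Rgs5 nor an endothelial UMI served as the background. Fabp4 was found in 19 of these 367 wells (5.18%, 3.15 to 7.97) at 1.35 UMIs per 10000, and 13 of the 19 held exactly 1 UMI. The other 6 wells held 32 of the 45 UMIs, and each of them also held a UMI of the pericyte list or of a longer list of 18 endothelial genes, so this background is not free of vascular transcripts. The median depth there was 754 UMIs. In the 262 wells among these with the tendon genes Tnmd, Fmod or Thbs4, which should lack Fabp4, the share was 4.96% (2.67 to 8.34). After thinning to 300 UMIs, Fabp4 was in 28.3% of Rgs5 wells without an endothelial UMI and in 2.67% of wells with neither. Its level in those Rgs5 wells was 21.8-fold (15.4 to 31.2) that of wells with neither.

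Cd36, the fatty acid receptor, was sparser, with 173 UMIs in 72 wells, and 59.7% of these wells held exactly 1 UMI. It was found in 32 of 45 Rgs5 wells with an endothelial UMI (71.1%, 55.7 to 83.6), 24 of 73 without (32.9%, 22.3 to 44.9) and 11 of 367 wells with neither (2.997%, 1.51 to 5.30). Its level in the first class was 23.2, 20.2 and 27.4 UMIs per 10000 in the pools of 2 days, 6 weeks and 13 weeks, and the intervals of the 3 values overlapped. The highest single well held 8, 16 and 12 UMIs at the 3 times. Between Rgs5 wells with and without an endothelial UMI, Cd36 differed 3.03-fold (2.06 to 4.54). This ratio was 1.72 when all wells were thinned to 300 UMIs, was 1.90 as a ratio of means over wells, and was 5.07 with wells of 2 or more pericyte genes. In wells under 500 UMIs no such difference was seen, with 16.5 UMIs per 10000 in the 9 wells with an endothelial UMI and 17.8 in the 37 without. In wells of 1000 or more the levels were 27.2 and 2.46.

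Fabp4 and Cd36 were often in the same wells. In Rgs5 wells with an endothelial UMI, 32 of 45 held both, 10 held Fabp4 alone and none held Cd36 alone. In Rgs5 wells without one, 12 of 73 held both, 14 held Fabp4 alone and 12 held Cd36 alone. All Cd36 wells of the first class were thus Fabp4 wells as well, and those of the second were split evenly.

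Gpihbp1, the endothelial anchor of lipoprotein lipase, was the member most concentrated in Rgs5 wells with an endothelial UMI. Of its 92 UMIs, 83.7% were in Rgs5 wells with an endothelial UMI, where 32 of 45 wells held it. Its level there was 18.8 UMIs per 10000 (10.96 to 30.1) in the 2-day pool. It was 15.9 (10.7 to 22.7) in the 6-week pool and 15.8 (10.7 to 22.6) in the 13-week pool. The 73 Rgs5 wells without an endothelial UMI held 4 Gpihbp1 UMIs in 3 wells, a ratio of 18.9 (7.09 to 71.1). Thinned to 300 UMIs the ratio was 5.04. In wells with neither, 10 UMIs were found, none of them at 2 days. The 18 wells with an endothelial UMI and no Rgs5 held 1 Gpihbp1 UMI, against 86 UMIs of Fabp4 and 15 of Cd36.

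Lpl, the lipase itself, had a different distribution. Its 59 UMIs were spread over 51 wells with at most 3 in any, and only 15 of these wells (29.4%) were Rgs5 wells. Wells with neither Rgs5 nor an endothelial UMI held 38 of its UMIs at 1.14 per 10000 (0.806 to 1.56), close to the 1.09 (0.353 to 2.54) of Rgs5 wells without an endothelial UMI. Rgs5 wells with an endothelial UMI stood at 3.20 (1.79 to 5.28), from 15 UMIs. Fabp5, the second chaperone, reached 19 UMIs in 16 wells, and 12 of these UMIs were in Rgs5 wells with an endothelial UMI. At this depth neither gene allowed a comparison between time points within a class.

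**Figure D2:**
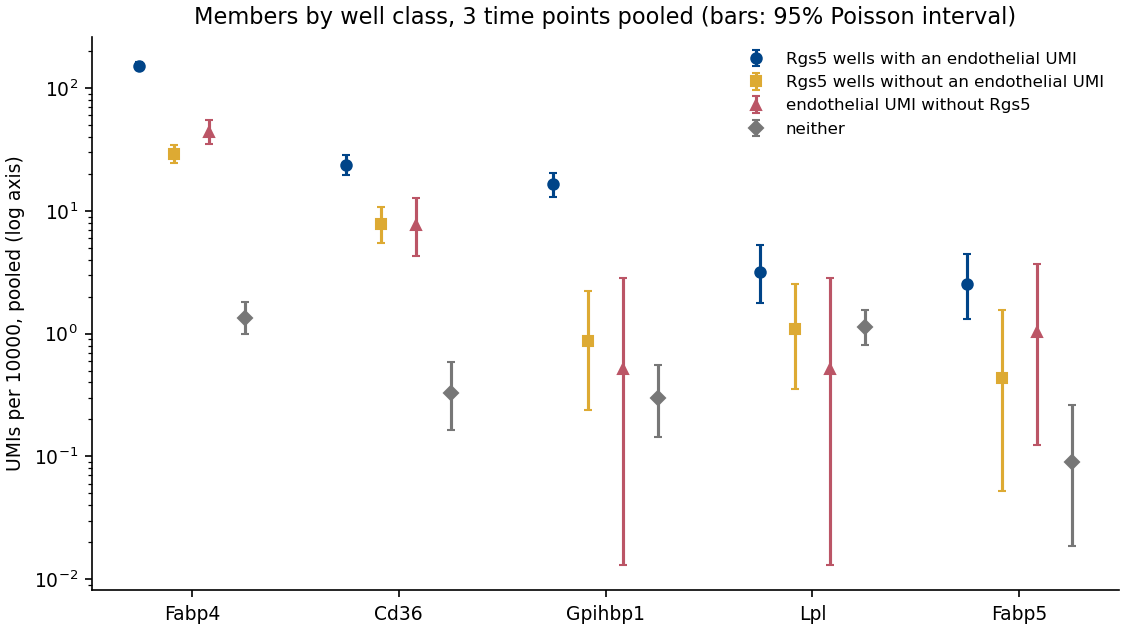
Pooled level of the 5 members (horizontal axis) in the 4 classes of wells, in UMIs per 10000 on a log axis, with all 3 time points together and bars for 95% Poisson intervals. All 5 lie highest in Rgs5 wells with an endothelial UMI, and Lpl lies at 3.20 there, 1.09 in Rgs5 wells without an endothelial UMI and 1.14 in wells with neither.

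Among 1400 genes with at least 50 UMIs, 6.64% were 2-fold or more higher in Rgs5 wells than in other wells, and 3 of the 4 members that reached this minimum were among them. Fabp4 stood 24.6-fold (20.4 to 29.8), Cd36 21.5-fold (14.1 to 34.0) and Gpihbp1 28.0-fold (14.8 to 58.3) higher. The pools differed. At 2 days, 6 weeks and 13 weeks the Fabp4 ratio was 104 (53.6 to 233), 29.1 (20.5 to 42.6) and 11.8 (9.35 to 15.1). For Cd36 it was 58.3, 41.8 and 9.53. For Gpihbp1 it was 13.1 and 27.9 at 6 and 13 weeks, with 0 UMIs in the other wells at 2 days. Between Rgs5 wells with and without an endothelial UMI, 14.9% of 201 genes were higher by 2-fold, and all 3 members tested were. Since the members were chosen from these wells, the counts are given beside the background without further reading.

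A finer scale came from 18 endothelial genes, which add Flt1, Ptprb, Esam and others to the 4 above. Fabp4 was higher at each step in the number of endothelial UMIs in an Rgs5 well, from 17 per 10000 (12.7 to 22.3) in the 48 wells with none to 53.6 in 21 wells with 1 UMI. A single well held 25 of the 54 Fabp4 UMIs of these 21 wells. Fabp4 then stood at 102 in wells with 2 to 4, 138 in wells with 5 to 9 and 160.3 (145 to 176) in the 16 wells with 10 or more. Cd36 went from 6.21 (3.74 to 9.70) with none to 30.6 (24.3 to 38.1) with 10 or more. The wells with more endothelial UMIs were also deeper, with a median of 506 UMIs in those with none and 1410 in those with 10 or more.

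The 48 Rgs5 wells with no UMI of any of the 18 genes held some of the members. Fabp4 was still found in 13 of them (27.1%, 15.3 to 41.8) with 52 UMIs, and Cd36 in 13 with 19 UMIs. Lpl was in 3 of these wells with 3 UMIs. Gpihbp1 and Fabp5 had 0 UMIs, for which the upper Poisson limit is 1.21 per 10000. That limit is above their levels in all Rgs5 wells without an endothelial UMI of the 4 genes, 0.870 and 0.435. By time point, Fabp4 was in 5 of 19, 4 of 16 and 4 of 13 of these wells, and Cd36 in 4, 4 and 5. Each pool thus held some Rgs5 wells with Fabp4 or Cd36 and no detected endothelial transcript, although a shallow well can miss such a transcript.

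**Figure D3:**
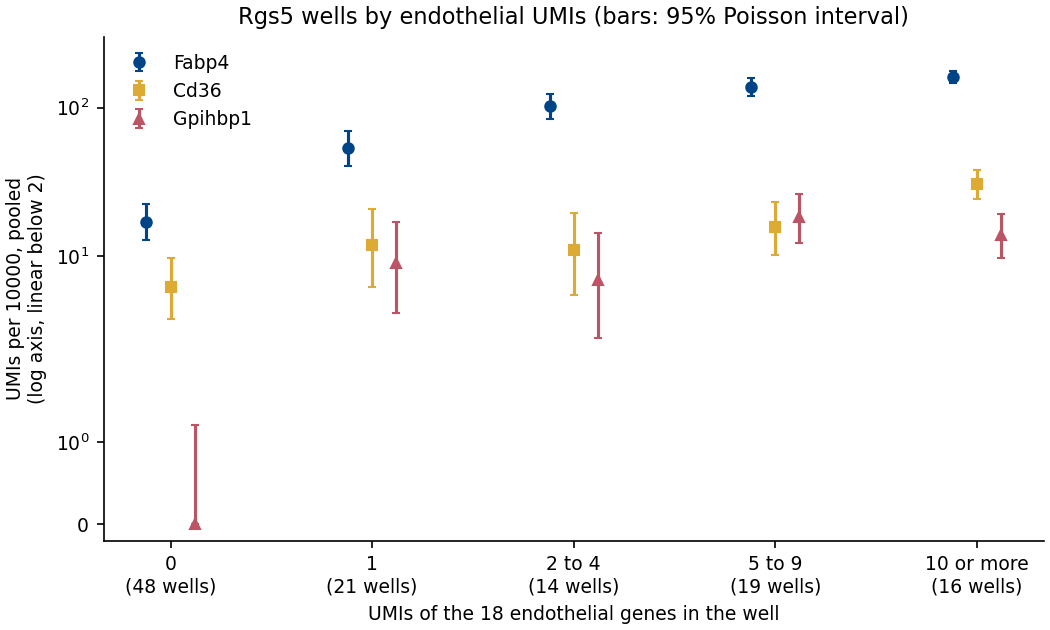
Pooled levels of Fabp4, Cd36 and Gpihbp1 in the 118 Rgs5 wells, in UMIs per 10000 (log axis, linear below 2), by the UMIs of 18 endothelial genes in the well; bars are 95% Poisson intervals. Fabp4 goes from 17 with none to 160.3 with 10 or more, and Gpihbp1 is at 0 in the 48 wells with none.

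The members were also set against the other 14 endothelial genes, which did not define the classes. For each UMI of these genes, Rgs5 wells without an endothelial UMI held 3.29 Fabp4 UMIs and wells with one held 2.46, a ratio of 1.34 (0.911 to 2.00) whose interval includes 1. For Cd36 the values were 0.878 and 0.383, a ratio of 2.29 (1.35 to 3.89). For Gpihbp1 they were 0.0976 and 0.266, a ratio of 0.367 (0.0929 to 1.06). Of the 3 pooled ratios only that of Cd36 had an interval without 1. In the pools of 2 days, 6 weeks and 13 weeks the Cd36 ratio was 1.11 (0.335 to 3.54), 2.72 (1.10 to 6.52) and 2.88 (1.16 to 7.23). The Fabp4 ratio was 0.723 (0.320 to 1.72), 1.21 (0.642 to 2.35) and 1.98 (1.01 to 4.18), and without the well of the highest Fabp4 level in the class without an endothelial UMI it was 0.611, 0.912 and 1.30 (0.627 to 2.92).

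Over all kept wells, Fabp4, Cd36 and Gpihbp1 were higher at the later times. Fabp4 stood at 9.64 UMIs per 10000 (8.22 to 11.2) in the 2-day pool. The 6-week pool had 22.1 (19.8 to 24.5) and the 13-week pool 39.7 (36.2 to 43.5). Cd36 stood at 1.87, 3.51 and 7.30, and Gpihbp1 at 1.05, 2.55 and 2.89. Relative to 2 days, the 13-week ratio was 4.12 (3.44 to 4.95) for Fabp4, 3.91 (2.57 to 6.06) for Cd36 and 2.74 (1.51 to 5.16) for Gpihbp1. Of 772 genes compared, 3.76% were higher by 2-fold or more at 13 weeks, these 3 members included. As a ratio of means over wells, Gpihbp1 was at 1.65 and so under 2-fold. At 6 weeks the ratios were 2.29 (1.90 to 2.77), 1.88 (1.19 to 3) and 2.43 (1.36 to 4.50), where 4.39% of 957 genes and 2 of the 3 members passed 2-fold. With means over wells the 6-week ratios were 1.66 for Fabp4, under 2-fold, and 1.21 for Cd36, and without the deepest 5% of wells the Fabp4 ratio was 1.70. Lpl was nearly level at 1.28, 1.28 and 1.44, and Fabp5 had 4, 3 and 12 UMIs.

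Within Rgs5 wells the differences were smaller. Fabp4 stood at 64.0, 84.8 and 119.7 UMIs per 10000, and the 13-week ratio to 2 days was 1.87 (1.55 to 2.27). Cd36 stood at 11.9, 13.9 and 21.1, with a 13-week ratio of 1.77 (1.128 to 2.84), and Gpihbp1 had a ratio of 1.32 (0.715 to 2.503). No member tested passed 2-fold, against 4.42% of 113 genes at 13 weeks and 8.73% of 126 genes at 6 weeks. The share of Rgs5 wells was 19.3%, 23.8% and 28.6%, a difference of 9.23 points (−0.696 to 19.3) between 13 weeks and 2 days. The share of Rgs5 wells with an endothelial UMI was 28.6%, 37.8% and 47.4%, a difference of 18.8 points (−5.35 to 40.6). Both intervals include 0.

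Within Rgs5 wells with an endothelial UMI, Fabp4 differed little between times. Its 13-week ratio to 2 days was 1.21 (0.982 to 1.503) and its 6-week ratio 1.04 (0.835 to 1.29). For Cd36 the ratios were 1.18 (0.698 to 2.06) and 0.868 (0.497 to 1.56), and for Gpihbp1 0.841 (0.449 to 1.62) and 0.846 (0.452 to 1.64). All 6 intervals include 1. In Rgs5 wells without an endothelial UMI, Fabp4 stood at 20.2, 23.01 and 49.0 UMIs per 10000, a 13-week ratio of 2.42 (1.55 to 3.86). A single 13-week well held 25 of the 63 Fabp4 UMIs, among 365 UMIs in all. Without the well of the highest level at each time, the levels at 2 days and 13 weeks were 15.95 and 30.4. In wells with an endothelial UMI and no Rgs5, Fabp4 had 0 UMIs in 2 wells at 2 days, 9 UMIs in 8 wells at 6 weeks and 77 in 8 wells at 13 weeks, 43 of the 77 in 1 well.

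The difference in the mean level per well was then written as the sum of 3 parts: the share of Rgs5 wells, the level within Rgs5 wells and the level within the other wells. The mean over wells counts each well equally and so differs from the pooled level above. For Fabp4 it was 12.8 at 2 days and 37.2 at 13 weeks, a difference of 24.4. The share of Rgs5 wells gave 7.48 of this (30.7%), the level within Rgs5 wells 11.7 (48.2%) and the other wells 5.17 (21.2%). Of the 11.7, a larger share of wells with an endothelial UMI gave 4.87, the level within such wells 0.549, and the level within Rgs5 wells without one 6.33. In the last class the mean was 24.99 at 2 days and 67.6 at 13 weeks, or 15.8 and 35.1 without the highest well of each. Nearly all of the other wells' part, 4.98, came from wells with an endothelial UMI and no Rgs5. Without 1 of these wells at 13 weeks, with 43 Fabp4 UMIs of 1136, the other wells' part was 2.17.

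At 13 weeks the part from the level in Rgs5 wells depended on the wells included. It was 5.56 with wells of 2 or more pericyte genes in place of Rgs5 wells, 6.02 with wells of 100 or more genes, and 8.10 without the highest well of each class and time. At 6 weeks the Fabp4 difference was 8.52, made of 2.96 from the share, 3.37 from the level in Rgs5 wells and 2.19 from other wells, or 1.01 without 1 well of 9 Fabp4 UMIs. Of the 2.19, wells with neither Rgs5 nor an endothelial UMI gave 1.98 and wells with an endothelial UMI 0.209, unlike at 13 weeks. With wells of 2 or more pericyte genes the part from the share changed sign to −0.745 and the part from the level in such wells to −1.96.

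For Cd36 the 13-week difference of 4.45 split into 1.41, 1.73 and 1.31, where the level part lay between 1.003 and 3.13 over the alternatives, the highest with read counts. At 6 weeks it was 0.576, of which 0.542 came from the share of Rgs5 wells and −0.125 from the level within them. Both signs turned under an alternative: the share part was −0.167 with wells of 2 or more pericyte genes, and the level part was 1.36 with read counts. Over the alternatives, the part from the share at 13 weeks lay between 2.73 and 11.1 for Fabp4 and between 0.710 and 2.19 for Cd36, and the interval of the share difference itself includes 0. Where an endothelial transcript was also found, the mean level per Rgs5 well was 151 and 157 for Fabp4 and 23.6 and 22.1 for Cd36 at 2 days and 13 weeks. Where none was found, the Cd36 mean was 8.52 and 18.3, and this class gave 1.45 of the 1.73 from the level in Rgs5 wells. Cd36 was in 5 of 25 of these wells at 2 days and 11 of 20 at 13 weeks, and the ratio of its pooled levels was 2.24 (0.890 to 6.09), with an interval that includes 1.

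**Figure D4:**
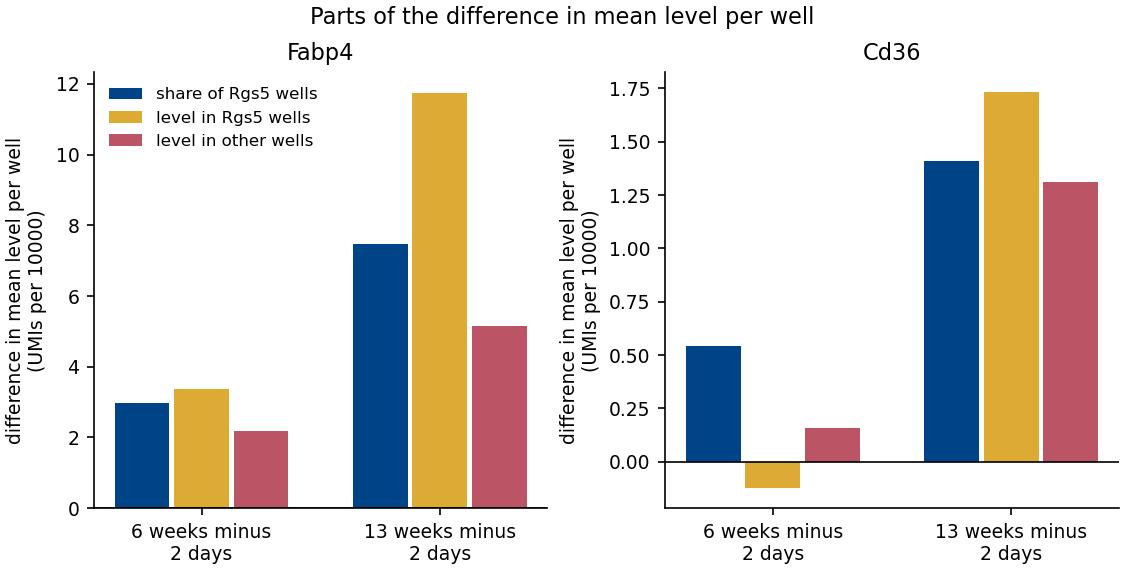
Parts of the difference in mean level per well (UMIs per 10000, vertical axis) for Fabp4 (left) and Cd36 (right), at 6 and 13 weeks relative to 2 days (horizontal axis); each bar is the part from the share of Rgs5 wells, from the level in Rgs5 wells or from the level in other wells. For Fabp4 at 13 weeks the bars stand at 7.48, 11.7 and 5.17, and for Cd36 at 6 weeks the level part lies below 0 at −0.125.

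Other genes of fatty acid handling were read from a list of 54, of which 47 were listed in the matrices and 17 reached 20 UMIs. Between Rgs5 wells and other wells, 8 reached 50 UMIs, and of these 5 were higher by 2-fold and 2 lower (6.64% and 17.6% of all genes tested), with a median ratio of 2.503 against 0.914 over all genes tested. Of the genes of caveolae, the membrane pits of endothelial and mural cells, Cav1 was 5.62-fold (4.10 to 7.74) and Sdpr (Cavin2) 7.60-fold (5.03 to 11.7) higher. Ptrf (Cavin1) was at 1.58 (1.09 to 2.24), under 2-fold. Flt1, a VEGF receptor that is also on the endothelial list, was 11.1-fold (7.04 to 18.1) higher. Its partner receptor Nrp1 was 2.36-fold (1.56 to 3.54) higher, and Mgll, which cleaves monoglycerides, 2.64-fold (1.79 to 3.88). The lipoprotein receptor Lrp1 was at 0.397 (0.261 to 0.582) and Meox2, a transcription factor, at 0.451 (0.174 to 0.989) of the level in other wells.

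The genes of fatty acid oxidation gave no difference beyond counting error. Acadvl was at 1.19 (0.521 to 2.48), Acadm at 1.16 (0.419 to 2.78), Acadl at 1.11 (0.403 to 2.65), Hadha at 0.704 (0.212 to 1.85) and Cpt1a at 0.845 (0.208 to 2.56). With 22 to 42 UMIs each, their intervals leave room for differences of 2-fold. Plin3, a lipid droplet protein, was at 1.69 (0.636 to 4.08) and Acsl5, which activates fatty acids, at 1.63 (0.513 to 4.51), again with intervals that include 1. Fabp3 had 20 UMIs, all in wells with neither Rgs5 nor an endothelial UMI. Cav2, a further gene of caveolae, was at 5.07 (1.96 to 13.6) from 21 UMIs.

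**Figure D5:**
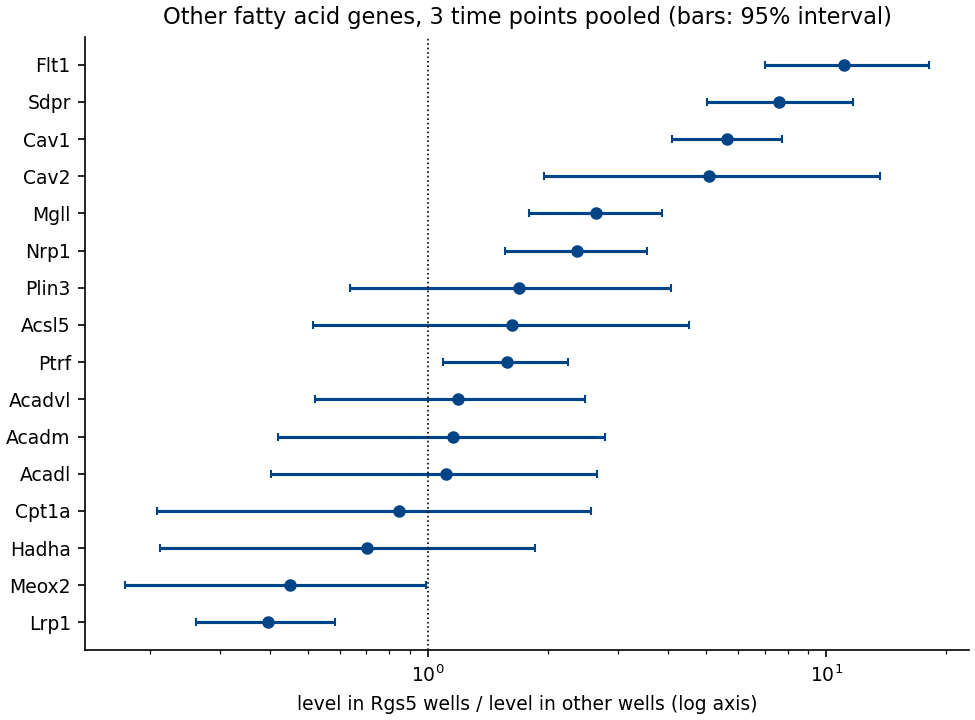
Level in Rgs5 wells divided by the level in other wells (horizontal log axis) for 16 further fatty acid genes with 20 or more UMIs, all time points pooled, with 95% intervals; the dotted line marks equal levels. Flt1, Sdpr and Cav1 lie farthest to the right, and the intervals of the oxidation genes cross 1.

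In time, 3 of 7 pathway genes with enough UMIs were 2-fold higher at 13 weeks than at 2 days: Flt1 (7.12, 3.56 to 15.8), Sdpr (3.03, 1.83 to 5.15) and Cav1 (2.36, 1.60 to 3.50). The share over all genes was 3.76%, and the median of the 7 was 1.91 against 0.918 over all genes. At 6 weeks 1 of 8 passed, against 4.39% of all genes, with a median of 1.38 against 0.981. Between Rgs5 wells with and without an endothelial UMI, Flt1 differed 36.3-fold (9.70 to 305), Cav1 5.28-fold (3.07 to 9.64) and Sdpr 4.07-fold (2.24 to 7.89). These 3 genes, like Fabp4, Cd36 and Gpihbp1, were thus higher where endothelial transcripts were found.

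Markers of the other cells known for Fabp4 were rare. Of 9 adipocyte genes, 6 were listed in the matrices, and these summed to 5 UMIs in the 118 Rgs5 wells and 9 in the others. Adipoq had 1 UMI in all kept wells and Pparg 2, while Lep, Retn and Cfd were not listed. The 7 macrophage and immune genes listed, of 9, summed to 5 UMIs in Rgs5 wells, none of them with an endothelial UMI, and 26 in the others. Of the 92 wells with Fabp4, 3 held 10 of these UMIs. The 14 endothelial genes that did not define the classes, in contrast, summed to 61.9 UMIs per 10000 in Rgs5 wells with an endothelial UMI, 8.91 in those without and 4.14 in wells with neither. Within all Rgs5 wells the 18 endothelial genes stood at 31.2, 58.1 and 66.0 at the 3 times, in the same direction as Fabp4. In Rgs5 wells without an endothelial UMI of the 4 genes they stood at 7.83, 9.54 and 9.34, from 12, 17 and 12 UMIs. That class is defined by having no UMI of 4 of these 18 genes, so their level there is held down by the definition. Fabp4 was higher in this class at 13 weeks, but 1 well held 25 of its 63 UMIs. Fibroblast and progenitor genes moved the other way, at 109, 51.6 and 40.9 in Rgs5 wells and at 142, 67.4 and 63.0 in those without an endothelial UMI. The part of either list in the Fabp4 difference was not tested. Pericyte genes, Rgs5 included, stood at 108, 96.0 and 108 over the same times, smooth muscle genes at 26.3, 21.5 and 29.5, and tendon genes at 20.1, 18.5 and 17.3. In Rgs5 wells without an endothelial UMI smooth muscle genes stood at 33.3, 32.0 and 52.1. They were also higher at 13 weeks in wells with neither Rgs5 nor an endothelial UMI, at 7.16, 9.80 and 18.3. The difference was thus not particular to Rgs5 wells. The remaining lists set Rgs5 wells apart from other wells. In UMIs per 10000, the pericyte genes other than Rgs5 stood at 33.8 against 4.90, smooth muscle genes at 25.5 against 10.7, tendon genes at 18.5 against 95.6 and fibroblast genes at 63.0 against 199.7. Skeletal muscle genes stood at 4.95 against 29.8 and satellite cell genes at 0.754 against 2.41. Hemoglobin and other red blood cell genes stood at 49.9 against 21.7, but 451 of their 463 UMIs in Rgs5 wells were in 5 wells with an endothelial UMI.

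Rgs5 wells without an endothelial UMI were then split by Fabp4. The 26 wells with Fabp4 and the 47 without had similar depth, with medians of 509.5 and 497 UMIs, and similar pericyte levels of 141 and 130.2 UMIs per 10000 for a list that includes Rgs5. Some of the 18 endothelial genes were found in 13 of the 26 and 12 of the 47, at 16.4 and 4.49 per 10000. Smooth muscle genes stood at 59.3 and 25.6, tendon genes at 9.39 and 42.5, and fibroblast and progenitor genes at 59.3 and 109.9. The wells with Fabp4 thus carried more endothelial and smooth muscle transcripts and fewer tendon and fibroblast transcripts, as a description of 73 wells.

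Over all 503 wells, the 5 genes most like Fabp4 among 2783 compared were Gpihbp1 (Pearson r 0.609), Flt1 (0.588), Cd36 (0.586), Rgs5 (0.562) and Egfl7 (0.555), on ln(1 + UMIs per 10000). For Cd36 they were Fabp4 (0.586), Rgs5 (0.534), Flt1 (0.512), Gpihbp1 (0.447) and Cav1 (0.444). The correlation of Fabp4 with Cd36 was 0.582, 0.547 and 0.599 within the 3 time points. The wells of a plate share their library and range of depth, so these values only order the genes.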

How the data were processed

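Single Tomato+ cells were sorted into the wells of plates and their transcript 3′ ends were sequenced with a modified Drop-seq protocol. For each plate, the authors deposited a matrix of UMI counts and a matrix of read counts (genes by wells), with no normalization or cell filter. The submitters' processing notes name STAR 2.5.4a, Picard 2.9.3, bcl2fastq 2.18.0.12 and GRCm38. Reads that share a UMI were collapsed, so UMI counts were the main measure and read counts an alternative. The 168 wells with no sample name were not used. The deposited well note calls the last time point 12 weeks, whereas the labels and the matrices call it 13 weeks.

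Wells with 200 or more genes were kept, which is the gene minimum of the study's methods. This left slightly fewer wells at each time point than the cells the study states, and why was not tested. Levels are UMIs of a gene per 10000 UMIs, pooled over the wells of a class. Levels have exact Poisson intervals, shares Clopper-Pearson intervals, and ratios exact conditional intervals (SciPy 1.17.1, pandas 2.3.3, Python 3.11.15). Differences between shares have intervals combined from those of the 2 shares (MOVER method). Thinned values are the expected shares after drawing 300 UMIs from each well that has them. With 1 pool per time point no test was possible and none was run. The interval code was checked on simulated counts. Between 2 days and a later time, the difference in mean level per well was split into the difference in the share of Rgs5 wells times the mean gap between classes, and the differences in level times the mean shares.

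The members, gene lists and tests were chosen with earlier results of these data known. Named were the 5 members, the fatty acid pathway genes with 20 or more UMIs, the marker lists, and the 5 genes most correlated with Fabp4 and with Cd36 among those found in 25 or more wells. A gene counted as higher or lower when it had 50 or more UMIs over both groups and differed 2-fold.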

Additional observations from a re-analysis of the deposited data

Results flagged for a closer look

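Wells under 200 genes entered no comparison above, but some held members. The 27 such wells at 6 weeks held 21 Fabp4 UMIs in 5 wells and 5 Cd36 UMIs in 3 wells, and the 59 at 13 weeks held 18 Fabp4 UMIs in 8 wells and 5 Cd36 UMIs in 4 wells. The 11 such wells at 2 days held none of either, from 2590 UMIs in all. Each of the 4 counts is above 3 UMIs. The 2-day wells held so few UMIs that their upper limit is 14.2 per 10000. Fabp4 stood at 47.0 UMIs per 10000 (29.1 to 71.9) in the 6-week wells and 18.7 (11.1 to 29.5) in the 13-week wells, and Cd36 at 11.2 (3.63 to 26.1) and 5.19 (1.69 to 12.1). A single 6-week well held 11 of the 21 Fabp4 UMIs, and without it the level was 23.5 (11.3 to 43.2), whose lower limit is under 14.2. The wells were shallow, with medians of 209 and 167 UMIs, and 2 of the 5 and 2 of the 8 wells with Fabp4 also held Rgs5. In all, Rgs5 was in 7 of the 27 wells at 6 weeks, 16 of the 59 at 13 weeks and 0 at 2 days. The gene minimum thus removed Rgs5 wells, most of them without Fabp4, from the later pools only.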

How the results depend on the processing

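The 17 main values were recomputed under 18 alternatives, which gave 249 values. Of these, 225 stayed within the counting interval of the main value. The cause of the differences was not tested.

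With wells of 2 or more pericyte genes in place of Rgs5 wells, the part of the Fabp4 difference from the level in such wells reversed at 6 weeks, to −1.96, and was 5.56 at 13 weeks. The parts from the share at 6 weeks, whose intervals include 0, were then −0.745 for Fabp4 and −0.167 for Cd36. The ratio between wells with and without an endothelial UMI was then 9.97 for Fabp4 and 5.07 for Cd36. With read counts, the Fabp4 level part at 6 weeks was 6.60 and that of Cd36 1.36, the Cd36 ratio of 6 weeks to 2 days was 3.37, and the Fabp4 ratio of 13 weeks to 2 days was 5.40. With means over wells, the Fabp4 ratios to 2 days were 1.66 at 6 weeks and 2.90 at 13 weeks, the Cd36 ratio at 6 weeks 1.21 and the Gpihbp1 ratio at 13 weeks 1.65. The ratios with to without an endothelial UMI were then 4.05 for Fabp4 and 1.90 for Cd36. Without the deepest 5% of wells, the Fabp4 ratios to 2 days were 1.70 and 3.25. After thinning to 300 UMIs, the ratios with to without an endothelial UMI were 2.86 for Fabp4, 1.72 for Cd36 and 5.04 for Gpihbp1, and at 500 UMIs the Fabp4 ratio was 4.23. That Fabp4 ratio was 6.51 with 300 genes per well and 7.52 with the longer endothelial list. With 100 genes per well, the Fabp4 level part at 13 weeks was 6.02. Over the alternatives, the Cd36 ratio of 13 weeks to 2 days lay between 2.62 and 5.95 (main value 3.91). The Gpihbp1 ratio with to without an endothelial UMI lay between 5.04 and 31.5 (main value 18.9).

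Alternatives added after seeing the data left out the well with the highest level, or with most UMIs where a single well is named. Leaving it out at each time gave a Fabp4 ratio with to without an endothelial UMI of 6.85. Leaving it out in each class at each time gave 7.02, and a level part at 13 weeks of 8.10. For Gpihbp1 this last setting and the longer endothelial list left no UMI in the second group, so no ratio was obtained. No paired analysis was possible because each time point was 1 pool of mice. At a median of 727 UMIs per well, the absence of an endothelial or Rgs5 UMI does not show that the gene was absent from the cell.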
